A study of Mus musculus with 2 samples.

Results

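The 8 miRNAs described here are ones that abdominal organs next to a peritoneal tumour are known for. They are the hepatocyte miRNA mmu-miR-122-5p and the epithelial miRNAs mmu-miR-192-5p, mmu-miR-194-5p and mmu-miR-215-5p of intestine, liver and kidney. From the pancreas come the acinar miRNAs mmu-miR-216a-5p, mmu-miR-216b-5p and mmu-miR-217-5p and the islet miRNA mmu-miR-375-3p; the prefix for mouse is left out from here on. They were chosen by name, as markers of organs that tumour pieces can carry along, with earlier results of these data known. All 8 were found among the 1900 miRNA probes of the array, with 1 probe and 1 spot each. Tumours came from C57BL/6 mice, 5 weeks old at purchase, that were injected in the peritoneal cavity with ID-8 LUC2 cells, a luciferase-expressing mouse ovarian cancer line. From day 14 the bevacizumab group received bevacizumab at 5 mg/kg and the control group control IgG at 5 mg/kg, each 2 times a week into the peritoneal cavity, and mice were killed at day 42. Bevacizumab is an antibody raised against human VEGF-A, a growth factor for blood vessels. Each group had 1 array, labelled with Cy5. The texts name tumour RNA in the design and RNA from cells in the sample protocol, and give no number of mice per RNA. With 1 array a group there was no replicate check, no test between the groups and no p-value.

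miRNAs are short RNAs cut as a 5p and a 3p arm from a hairpin precursor, and they repress messenger RNAs that pair with the seed near their 5′ end. In liver, miR-122 makes up much of the miRNA pool of hepatocytes and bears on lipid metabolism. miR-192, miR-194 and miR-215 are abundant in gut, liver and kidney epithelium, where miR-192 and miR-215 can restrain cell division. miR-216 and miR-217 mark acinar cells, and miR-375 restrains insulin secretion in islets and is made in other endocrine cells too.

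The mature sequences below are shown because related members can share targets and, on an array, probe signal. They are RefSeq entries of build GRCm38.p6, written 5′ to 3′ with the seed, bases 2 to 8, in capitals. Of the 8 members 6 were matched, and miR-122-5p and miR-375-3p are named only.
miR-192-5p: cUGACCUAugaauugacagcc
miR-215-5p: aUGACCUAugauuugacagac
miR-194-5p: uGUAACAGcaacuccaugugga
miR-216a-5p: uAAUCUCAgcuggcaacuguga
miR-216b-5p: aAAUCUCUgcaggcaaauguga
miR-217-5p: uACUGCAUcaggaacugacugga
miR-375-5p, the other arm of the islet hairpin: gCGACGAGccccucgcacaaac
miR-192-5p and miR-215-5p had the same seed and 18 of 21 bases in common. Counted from 1 at the 5′ end, miR-215-5p differed from miR-192-5p by C1A, A12U and C20A. miR-216a-5p and miR-216b-5p had 18 of 22 bases in common, but 1 of their 4 differences, A8U, lay in the seed, and the others were U1A, U11A and C17A. miR-194-5p and miR-217-5p shared a seed with no other matched member. GC content lay between 38.1% (miR-215-5p) and 47.8% (miR-217-5p) in the 6 matched members and was 68.2% in miR-375-5p.

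The hairpins of 7 of the 8 members sit in the genome as 3 clusters and a lone hairpin, and the position of miR-122 is not given here. On chromosome 19, Mir194-2 (chr19:6264643-6264728) and Mir192 (chr19:6264844-6264932) lie 115 bases apart on the plus strand, overlapping no other gene of the RefSeq table. On chromosome 1, Mir194-1 (chr1:185313319-185313385) and Mir215 (chr1:185313581-185313692) lie 195 bases apart, also on the plus strand, within the bounds of Iars2, which encodes a mitochondrial isoleucyl-tRNA synthetase. Both Mir194 hairpins give the same mature miR-194-5p, so its probe reads the sum of the 2 loci. On chromosome 11, Mir216b (chr11:28746191-28746276), Mir216a (chr11:28757012-28757083) and Mir217 (chr11:28763728-28763835) follow one another on the plus strand, in the long noncoding RNA genes Mir217hg and Gm40818. Mir375 (chr1:74900658-74900721) lies on the minus strand of chromosome 1 and overlaps no other gene there.

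Signals are given as intensity units above the mean of the blank spots, which carry no probe. The error beside a dim signal is the SD of those blank spots, 4.03 units on the bevacizumab array and 0.828 on the control array, over the 808 of 896 blanks left after trimming. A miRNA was called detected above the blank mean plus 2 SD, which is 8.06 units on the bevacizumab array and 1.66 units on the control array. The bevacizumab array detected 940 of 1900 miRNAs (49.5%) and the control array 1416 (74.5%), and 6.58% and 6.36% of all blank spots also passed these limits. Of the control probes printed in 8 spots, the 5 brightest that both arrays detected were 4.62 to 5.13 times brighter with bevacizumab RNA. The repeat spots of these 5 gave an SD of 0.16 for a log2 difference, which is the error of bright signals and covers spot error only.

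On the bevacizumab array, the organ miRNAs were at the level of blank spots. The bevacizumab array detected 1 of the 8 (12.5%, against 49.5% of all probes) and the control array 6 of the 8 (75.0%, against 74.5%). Both arrays detected 1 member (48.3% of all probes), and neither detected 2 (24.3% of all probes). At a stricter limit of 5 SD the bevacizumab array detected 0 of 8 members and 32.8% of all probes, and the control array 3 of 8 members and 61.7% of all probes. The member signals spanned -6.82 to 8.37 units on the bevacizumab array, with a median of -0.80, and -1.50 to 127 units on the control array, with a median of 2.81. On the bevacizumab array 4 members were above the blank mean and 4 below it, whereas on the control array 7 were above and 1 below. The 32 spots that the files name negative controls were looked at after these values were seen. They spanned -8.22 to 44.7 units on the bevacizumab array, with 17 over the detection limit, and -1.75 to 11.0 units on the control array, with 18 over it. No member exceeded all of them on the bevacizumab array, and miR-192-5p and miR-194-5p did so on the control array. The other 4 members detected with control IgG, miR-215-5p, miR-216b-5p, miR-217-5p and miR-375-3p, lay inside that span. The bevacizumab array missed 5 of the 6 members that the control array detected, and 499 of all 1416 such probes (35.2%). The limit was 8.06 units on the bevacizumab array and 1.66 on the control array, so a miss is not by itself a lower signal. miR-216b-5p, 1 of the missed members, read 5.81 and 5.97 units. Where a signal does differ in bulk RNA, fewer cells of a type and less RNA per cell cannot be told apart.

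**Figure D1:**
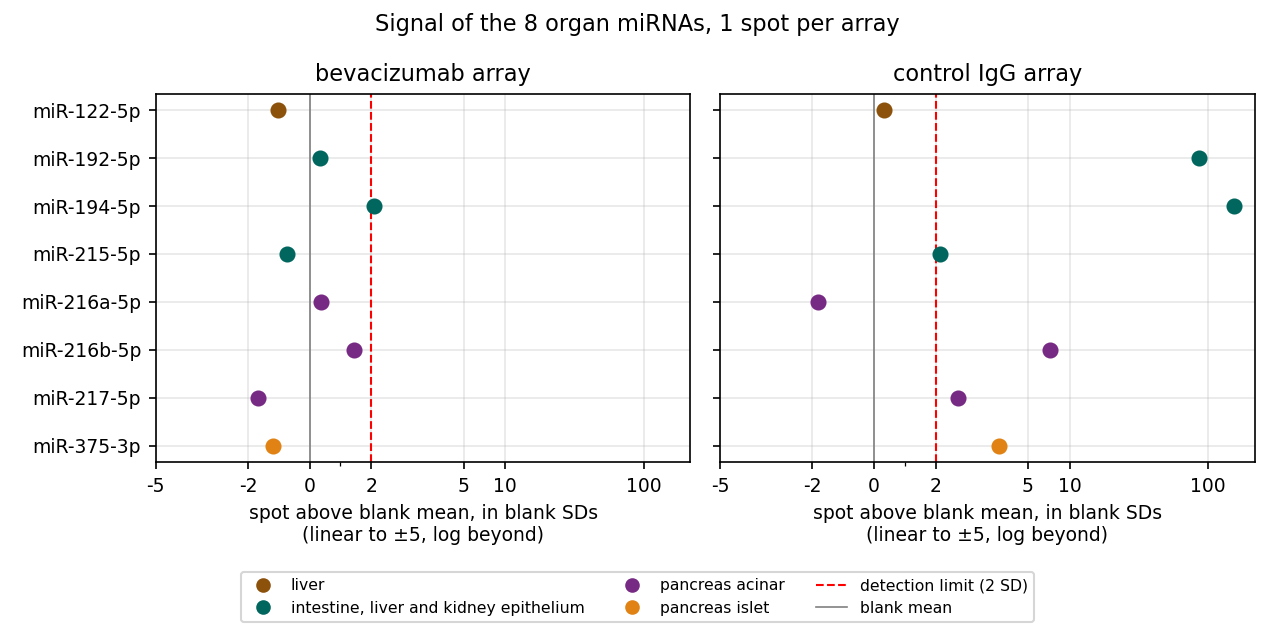
Each point is the spot of an organ miRNA, placed by its distance from the blank mean in blank SDs (axis linear to 5 SD, log beyond), with the bevacizumab array on the left and the control IgG array on the right. miR-194-5p alone passes the dashed limit on the bevacizumab array, at 2.08 SD, while miR-192-5p and miR-194-5p lie at 86.7 and 154 SD on the control array.

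The liver marker was not detected. miR-122-5p, the hepatocyte miRNA, read -4.09 ± 4.03 units on the bevacizumab array and 0.262 ± 0.828 units on the control array. Of the 896 blank spots, 708 were brighter than it on the bevacizumab array and 356 on the control array. Its other arm, miR-122-3p, was at -7.62 and -1.02 units, below the blank mean on both. miR-802, which liver and pancreas express, was also near the blanks. miR-802-5p read -2.71 units on the bevacizumab array and 1.03 on the control array, detected on neither, and miR-802-3p read 0.168 and 2.96 units, detected on the control array only. A hepatocyte signal was therefore not detectable at these limits, and since both arrays were at the blank level no difference between them can be given.

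The gut, liver and kidney epithelial group held miR-192-5p and miR-194-5p, the 2 members above every negative-control spot of the control array. The bevacizumab array detected 1 of its 3 miRNAs and the control array all 3, against 49.5% and 74.5% of all probes. miR-194-5p read 8.37 ± 4.03 units on the bevacizumab array and 127 units on the control array. miR-192-5p, from the hairpin beside Mir194-2, read 1.40 ± 4.03 units on the bevacizumab array and 71.7 on the control array. miR-215-5p, which shares the miR-192-5p seed, read -2.997 ± 4.03 and 1.77 ± 0.828 units. No blank spot of the control array was as bright as miR-192-5p or miR-194-5p there, but 40 of 896 were brighter than miR-215-5p, whose detection rests on 0.11 units above the limit. On the control array the miR-215-5p probe stayed at the blank level where the miR-192-5p probe was clear of it, with 18 of 21 bases shared between these miRNAs.

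miR-194-5p was the only member detected on both arrays, and it was 3.14-fold lower on the bevacizumab array (log2 -1.65, bevacizumab minus control) after correction with the normexp model, an added offset of 50 units and quantile normalization. The median log2 difference of the 917 miRNAs detected on both arrays was 0.14; 106 of them (11.6%) passed 2-fold downwards and 96 (10.5%) upwards. The offset holds down the fold of a dim miRNA. As plain blank-subtracted signals with no scaling between arrays, miR-194-5p was 15.2-fold lower with bevacizumab, and moving its bevacizumab spot up or down by 1 blank SD gave 10.3-fold to 29.4-fold. That spot was 0.306 units above the detection limit, and 57 of 896 blank spots were brighter. At a limit of 5 SD it was no longer detected on the bevacizumab array, where it was then at least 2.70-fold lower. The authors' deposited table lists it at 6.9 units for bevacizumab and 252.2 units for control IgG (log2 -5.19). The median log2 difference of the 917 miRNAs in that table was -0.45.

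The direction of miR-194-5p depended on how background was measured. On the bevacizumab array its spot read 193 units and the local background around that spot 140, against a median of 157 around blank spots. On the control array the spot read 200 units and its local background 191, against 63.3 around blanks. Spot minus local background was thus 53.8 units on the bevacizumab array, where blanks gave 28.3 ± 9.47, and 9.46 units on the control array, where blanks gave 9.56 ± 1.41 (SD over trimmed blank spots). By this measure it passed the limit set by blanks with bevacizumab and not with control IgG. The same measure detected 1 of 8 members and 31.4% of all probes on the bevacizumab array, and 1 of 8 members and 38.9% of all probes on the control array. With local background in the normexp correction the log2 difference was 0.20. Local background rose with spot intensity on each array, with a Pearson correlation of 0.891 on the bevacizumab array and 0.978 on the control array. A raised local background around a bright spot was thus not particular to miR-194-5p, and its cause was not tested. Of the 917 miRNAs, 48 passed 2-fold downwards and 48 upwards with local background, against 106 and 96 with blanks.

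For miR-192-5p, only a bound can be given, since it was not detected on the bevacizumab array: it was at least 2.15-fold lower there after quantile normalization. Such a bound sets the bright level against the faintest detected level of the dim array, or against the dim spot itself where that is brighter. It was the 1 bound above 1-fold among 5 members seen with control IgG alone, where 31.3% of all 499 such miRNAs had one and 15 (3.01%) reached 2-fold. The bound was 1.84-fold at the limit of 5 SD and 8.87-fold for plain blank-subtracted signals. Its local background on the control array was also raised, at 121.99 units around a spot of 145. The spot less its local background was 44.3 units on the bevacizumab array, under the limit of 47.3 set by blanks, and 22.6 units on the control array, over the limit of 12.4. miR-192-5p was thus detected on the control array alone by either measure of background. The size did not hold: over the same difference in blanks it stood 15.95 units up on the bevacizumab array and 13.03 units up on the control array, and with local background the bound was 1.12-fold.

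**Figure D2:**
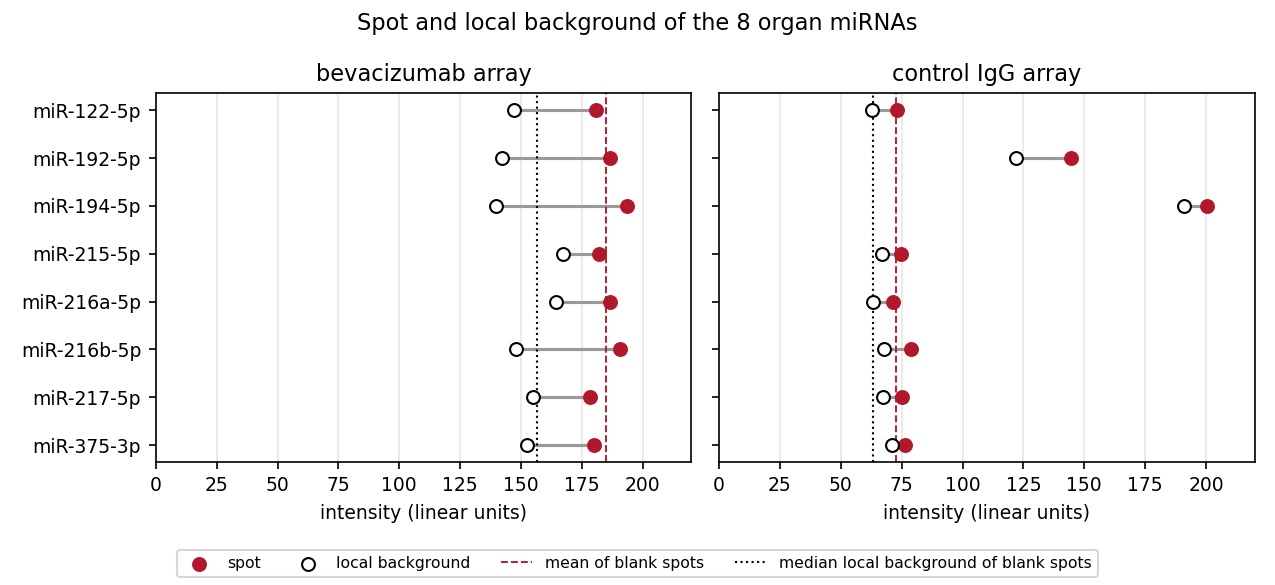
Filled points are the spot and open points the local background of each organ miRNA in linear intensity units, with the bevacizumab array on the left and the control IgG array on the right; lines mark the mean of blank spots (dashed) and the median local background of blanks (dotted). On the control array the local backgrounds of miR-192-5p (121.99) and miR-194-5p (191) stand far right of the dotted line at 63.3, and the gap from background to spot of miR-194-5p is 9.46 units.

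Among the other arms of the epithelial hairpins, the 3p arms of Mir194-1 and Mir194-2 have probes of their own. These 3p arms are alike in sequence, and whether their probes share signal was not tested. miR-194-2-3p, from the chromosome 19 cluster with Mir192, read 12.9 ± 4.03 units on the bevacizumab array and 11.8 ± 0.828 on the control array. It was detected on both and its log2 difference was -0.02, but at 5 SD it was no longer detected with bevacizumab. That difference was -1.14 in the authors' deposited table and -2.15 when scaled to the bright control probes. The median of all 917 miRNAs detected on both arrays was itself -0.45 and -1.46 on those scales. miR-194-1-3p, from the chromosome 1 cluster with Mir215, read -0.555 ± 4.03 and 3.91 ± 0.828 units and was detected on the control array only. miR-192-3p read 0.941 and 1.02 units and miR-215-3p -4.43 and 0.922 units, detected on neither array. miR-194-5p and miR-194-2-3p, the pair of arms detected on both arrays, lay 2.08 and 3.19 blank SDs above the blank mean on the bevacizumab array and 154 and 14.3 on the control array.

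The acinar pancreas group was dim on both arrays. The bevacizumab array detected 0 of its 3 members and the control array 2 of 3, against 49.5% and 74.5% of all probes. miR-216b-5p had 5.81 ± 4.03 units on the bevacizumab array and 5.97 ± 0.828 on the control array. These signals were near-equal before any scaling between arrays. They got different calls because the limit of the bevacizumab array was 8.06 units and that of the control array 1.66. miR-217-5p, a marker of acinar cells, read -6.82 ± 4.03 units on the bevacizumab array and 2.25 ± 0.828 units on the control array, where 10 of 896 blanks were brighter. miR-216a-5p, made from the same cluster, read 1.46 ± 4.03 and -1.50 ± 0.828 units and was detected on neither array. None had a bound above 1-fold after quantile normalization or unscaled, so on those scales no acinar difference was detectable. The bright control probes were 4.62 to 5.13 times brighter with bevacizumab RNA, and no acinar bound scaled to them is given here. The authors' deposited table lists miR-216b-5p at 11.8 units for control IgG and has no value for bevacizumab.

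Among the other acinar arms, miR-216a-3p read 2.33 units on the bevacizumab array and 4.35 units on the control array, and was detected on the control array only. miR-216b-3p (-3.85 and -1.22 units) and miR-217-3p (-17.2 and -0.043 units) were detected on neither. miR-148a-3p, which acinar cells share with many other tissues, was clear of the blanks on both arrays by blank-subtracted signal. It read 39.3 units on the bevacizumab array and 277 on the control array, and was 3.61-fold lower (log2 -1.85). With local background that difference was 0.01, and the local background on the control array was 343 units around a spot of 349. By spot minus local background miR-148a-3p was detected on neither array. It read 17.6 units on the bevacizumab array, where blanks gave 28.3, and 6.35 on the control array, where blanks gave 9.56. The opposite arm miR-148a-5p was at 4.29 and 1.10 units and detected on neither array.

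Of the islet hairpin, the 3p probe read near the blanks and the 5p probe far above them. Whether the 5p probe also read other RNA was not tested. miR-375-3p, the arm known from islets, read -4.80 ± 4.03 units on the bevacizumab array and 3.36 ± 0.828 on the control array, where 1 of 896 blanks was brighter. It was detected on the control array only, too dim for a bound after quantile normalization or unscaled. miR-375-5p read 114 units on the bevacizumab array and 935 units on the control array, with no blank spot as bright on either. It was 5.53-fold lower on the bevacizumab array (log2 -2.47), or 8.22-fold lower in plain blank-subtracted signal. Its local background was 174 units around a spot of 299 on the bevacizumab array and 724 units around a spot of 1007 on the control array. By spot minus local background it was detected on both. With local background the log2 difference was -1.88, so it stayed over 2-fold lower when miR-194-5p did not. In the authors' deposited table it had 93.4 units for bevacizumab and 1850.7 units for control IgG. Of the islet miRNAs named beside it, miR-7a-5p read -12.8 units on the bevacizumab array and 9.37 on the control array, at least 1.04-fold lower, and miR-7b-5p read -3.50 and 2.36 units with no bound.

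**Figure D3:**
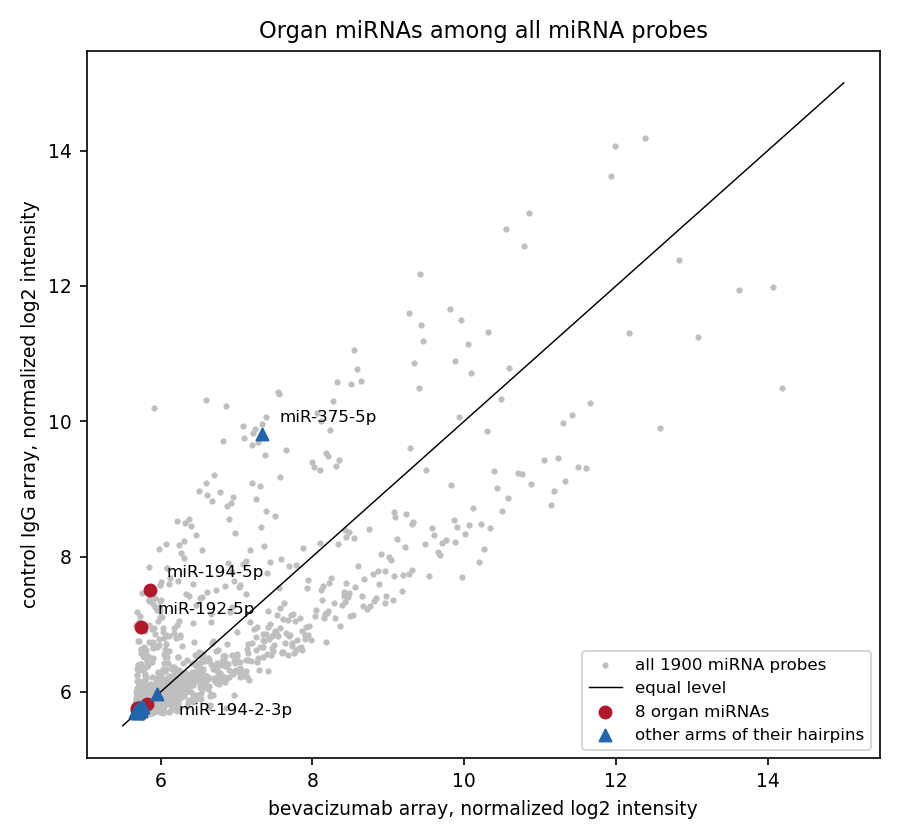
Each point is a miRNA probe, with its normalized log2 intensity on the bevacizumab array (x) and the control IgG array (y). Most organ miRNAs lie in the dim corner where both arrays are at the blank level; miR-192-5p and miR-194-5p lie above the equal-level line, and among the other arms miR-375-5p stands out at 7.34 (bevacizumab) and 9.81 (control).

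Of the 9 other arms, 2 were detected on the bevacizumab array (22.2%) and 4 on the control array (44.4%), against 49.5% and 74.5% of all probes. miR-375-5p was the 1 of 2 detected on both that was at least 2-fold lower, and none was higher. A further list of 10 miRNAs of abdominal organs had 4 detected on the bevacizumab array (40.0%) and 8 on the control array (80.0%). The 4 seen on both had a median log2 difference of -0.97, and miR-148a-3p and miR-202-5p were the 2 that passed 2-fold, both downwards. Of all 917 miRNAs detected on both arrays, 106 (11.6%) passed 2-fold downwards and 96 (10.5%) upwards. With local background neither call held, at log2 0.01 for miR-148a-3p and -0.65 for miR-202-5p.

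By blank-subtracted signal on the control array, miR-204-5p and miR-211-5p of that list were dim and the gonad miRNAs brighter. They were listed together for kidney, and whether the miR-211-5p signal came from kidney was not tested. miR-204-5p and miR-211-5p lay 8.75 and 5.36 blank SDs above the blank mean on the control array. miR-204-5p, abundant in kidney tubules, read 9.29 ± 4.03 units on the bevacizumab array and 7.24 ± 0.828 on the control array, with a log2 difference of 0.02, or -0.91 in the authors' deposited table. It was detected on both arrays, but at 5 SD on the control array only. Its relative miR-211-5p read 1.90 and 4.44 units and was seen on the control array only. miR-202-5p, known from ovary and testis, read 15.4 ± 4.03 units on the bevacizumab array and 141 on the control array, 3.08-fold lower (log2 -1.62). miR-202-3p read 93.7 and 123 units, with a log2 difference of -0.32, or -1.66 in the authors' deposited table and -2.66 when scaled to the bright control probes. The median of all 917 miRNAs detected on both arrays was -0.45 in the deposited table and -1.46 with control-probe scaling. Local background changed the log2 difference to -0.65 for miR-202-5p and 0.51 for miR-202-3p, so the 2-fold call and the sign did not hold for them. By spot minus local background miR-202-3p was detected on the bevacizumab array only. On the control array its spot of 195 units lay below its local background of 212.

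General epithelial miRNAs also gave lower blank-subtracted signals on the bevacizumab array. Of miR-200a-3p, miR-200b-3p, miR-200c-3p, miR-141-3p and miR-429-3p, which keep epithelial cells from turning mesenchymal, 1 of 5 was detected on the bevacizumab array (49.5% of all probes) and 5 of 5 on the control array (74.5% of all probes). By spot minus local background, 0 of 5 were detected on the bevacizumab array and 2 of 5 on the control array, miR-200c-3p and miR-429-3p. Their signals lay between -15.5 and 31.4 units on the bevacizumab array and between 46.3 and 196 units on the control array. miR-200b-3p, the one seen on both, was 3.18-fold lower (log2 -1.67). Its local background was 191 units around a spot of 216.3 on the bevacizumab array and 319 units around a spot of 268.4 on the control array, and with local background the log2 difference was 0.38. The labels give the cell type as ovarian cancer, for which these lists hold no defining miRNA. The miR-200 miRNAs are made by epithelium of many organs, and their part in the miR-192 and miR-194 values was not tested.

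The miRNAs most like miR-194-5p, by the distance between log2 blank-subtracted signals over the 2 arrays, were miR-195b at 0.27, miR-143-5p at 0.39 and miR-146b-5p at 0.50, among 916 others detected on both. Their signals were 9.46, 10.2 and 11.7 units on the bevacizumab array and 111, 106 and 116 units on the control array. Because they were chosen as nearest in these signals, all 3 paired a spot close to the bevacizumab limit of 8.06 units with a clear control signal.

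**Figure D4:**
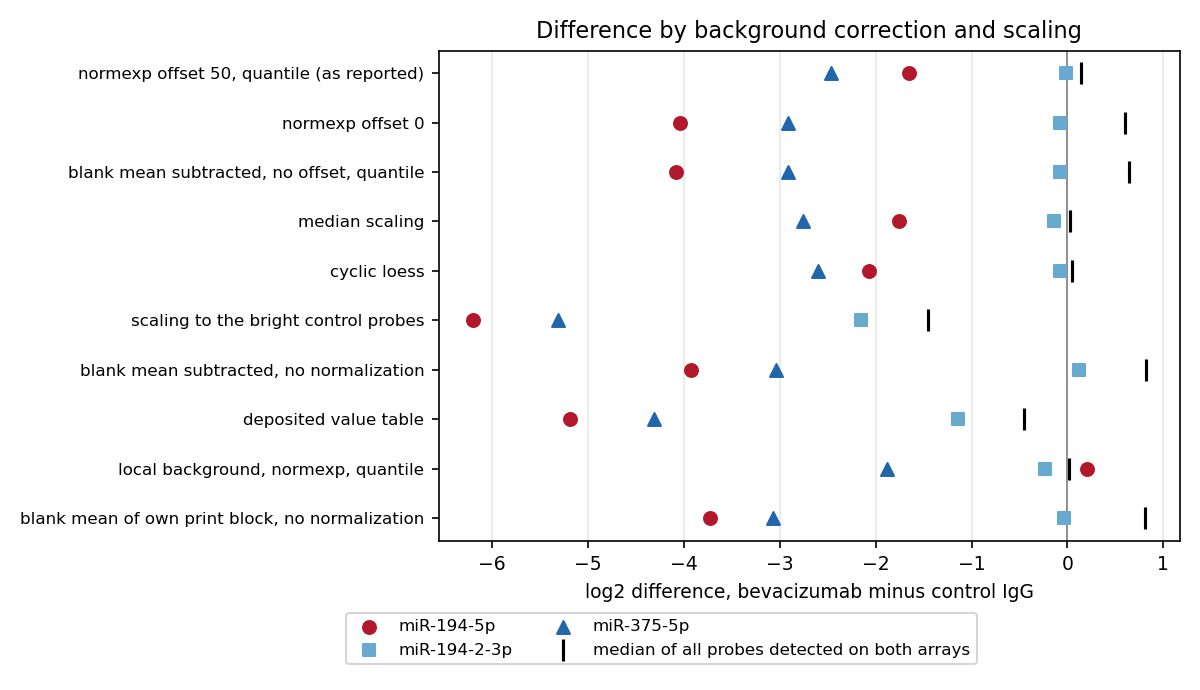
Points are log2 differences, bevacizumab minus control IgG, of miR-194-5p, miR-194-2-3p and miR-375-5p under each background correction and scaling, and bars are the median of all 917 miRNAs detected on both arrays. miR-194-5p ranges from -6.20 with scaling to the bright control probes to 0.20 with local background, while miR-375-5p stays between -5.31 and -1.88.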

How the data were processed

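miRNAs were measured in total RNA on Toray 3D-Gene arrays, 1 per group. Per the file headers, the authors' scanner files give linear spot intensity and local background intensity (medians at 635 nm) from 3 scan gains related by least squares, neither background-corrected nor normalized. The deposited value table is also linear intensity: set against the scanner files, it was the spot less the blank mean, divided by 1.22 (bevacizumab) or 0.505 (control), to within 0.0512 units, with a median of 25.0 on each array. The scanner software and that of the table are not given in the sources used.

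From the spots, blank statistics were taken after dropping 5% of the blanks at each end. Levels used normexp with blanks as negative controls (limma 3.58.1, R 4.3.3), an offset of 50, and quantile normalization of 1900 miRNA probes. A check on simulated data covered the direction of changes planted in clear signals. It did not cover the 2-fold call, the bounds, local background or signals near the detection limit. Calls used a fixed size of 2-fold. Alternatives changed the detection limit, background, offset and scaling. Probes were named by the file's miRNA names: all members, the other arms of their hairpins, a further organ list, and the 3 miRNAs nearest each member detected on both arrays. Members, lists and the 5 control probes were chosen with earlier results of these data known. The number of arrays limits the precision.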

Additional observations from a re-analysis of the deposited data

How the results depend on the processing

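Detection counts moved with the limit. On the bevacizumab array the count of 1 member became 0 at 5 SD and with untrimmed blanks, and 8 where a spot had only to exceed its local background by 2 SD, as 94.8% of blanks did. On the control array the count of 6 became 3 at 5 SD and 1 when spot minus local background was set against the same in blanks, an alternative chosen after seeing the data. The count of 1 member at least 2-fold lower became 0 with local background and at 5 SD and 2 with no detection filter, which adds miR-192-5p; the count of 0 higher was 0 under each setting run. The log2 difference of miR-194-5p, -1.65 as reported, was -4.04 at offset 0, -4.08 with plain blank subtraction before quantile normalization, -2.07 with cyclic loess, -6.20 with control-probe scaling, -3.93 unscaled, -3.73 with blanks of its own print block (chosen after seeing the data), -5.19 in the authors' deposited values and 0.20 with local background, which turned its sign; the cause was not tested. The bound of miR-192-5p, 2.15, was 8.87 unscaled, 42.9 with control-probe scaling, 1.84 at 5 SD and 1.12 with local background (chosen after seeing the data). The median of all 917 miRNAs lay between -1.46 with control-probe scaling and 0.82 unscaled. No paired analysis was possible because each group had 1 array. Signal over background limits the other members. Of the 6 detected on the control array, 5 were not detected on the bevacizumab array. For 4 of these the signal was too dim for a bound after quantile normalization or unscaled.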
